A study of Mus musculus with 6 samples.

Results

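This set holds the 37 genes for glucose uptake, glycolysis, lactate dehydrogenase, pyruvate dehydrogenase and its kinases, and monocarboxylate transport, taken by gene symbol from a table of 22731 genes. All 37 symbols were found in the table. They were measured by RNA sequencing of whole retina from 4-week-old mice of a mixed C57BL/6J and SJL background, with 3 libraries of rod-specific Dicer1 conditional knockouts (cKO) and 3 of control littermates. The cKO mice were Dicer fl/fl and iCre75+, and the controls were Dicer fl/fl and iCre75-, so that floxed Dicer1 alleles were shared by all 6 libraries and only Cre differed. iCre75 is a transgene that drives Cre recombinase from a rod promoter, and Dicer1 encodes the enzyme that cuts microRNA precursors to their mature form. Each library pooled RNA from 4 mice, the retinas having been taken between 8 and 10 in the morning. The series tests what the rod transcriptome does when that enzyme is lost, and here the question is put to the genes of glucose use.

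Photoreceptors are known for aerobic glycolysis: they take up glucose from the pigment epithelium and the Muller glia, turn most of it to lactate although oxygen is present, and export the lactate through monocarboxylate transporters. Hexokinase, phosphofructokinase and pyruvate kinase are the steps at which the flow is controlled. At the end of the path pyruvate is either reduced to lactate by lactate dehydrogenase or enters the mitochondrion, where the pyruvate dehydrogenase complex commits it to the citric acid cycle. That complex is switched off by the pyruvate dehydrogenase kinases and on by its phosphatases.

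Whole reads worked back from the deposited values lay between 12336426 and 32934561 reads in genes per library, with cKO replicate 4 the shallowest. No 2 libraries of a group were copies, since the chi-square per degree of freedom between their reads lay between 9.26 and 29.0. Dicer1 was at 8.02, 7.06 and 7.90 RPKM in cKO replicates 2, 3 and 4 and at 8.48, 8.77 and 8.33 RPKM in control replicates 1, 2 and 3, a weak check of the labels, because reads outside the floxed part and from other cells are counted too. RPKM is the read number scaled to the length of the gene model and to the depth of the library. All 15 rod markers were measured above 1 RPKM. Summed markers of bipolar cells, the interneurons next to the rods, were at 415, 426 and 460 RPKM in cKO and 388, 391 and 400.0 RPKM in controls and did not overlap, and those of rods, cones and Muller glia overlapped. The part of the bipolar difference in the results below was not tested. In whole retina, fewer cells of a type and less RNA per cell cannot be told apart.

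None of the 37 genes differed between cKO and control retina past an adjusted p of 0.05. A limma fit on log2(RPKM + 0.5) covered the 12599 genes whose mean reached 1 RPKM, which left out 2 members, Eno1 and Pdk4, and kept 35. The smallest adjusted p among these 35 was 0.848. In that fit 0.00794% of all genes tested passed as higher, which is the 1 gene Prm1, and 0% passed as lower. Prm1 was at 787, 818 and 1137 RPKM in cKO and 0, 0.385 and 0.185 RPKM in controls. The source of its reads was not tested. At an unadjusted limma p under 0.05, 4 members were higher in cKO (Pdk1, Slc16a3, Eno2 and Slc16a8), or 11.4% of 35 against 2.65% of all genes tested, and 1 was lower (Pdp1), or 2.86% against 3.06%. For 4 members each cKO library was higher than each control (Pdk1, Pdk2, Slc16a3 and Eno2), or 11.4% against 5.91% of all genes tested. Each cKO library was lower than each control for 1 member, Pdp1, or 2.86% against 5.78%.

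As a set the members leaned slightly upward in cKO. A higher mean log2 value was found for 24 of the 35 and a lower one for 11, a share of 68.6% higher against 48.4% of all genes tested, with a median log2 fold change of 0.033 for the members and -0.0050 for all genes tested. The members' fold changes ran from -0.20 (Pdp1) to 0.36 (Slc16a8) on the log2 scale. Glycolytic steps from uptake to pyruvate kinase, the bifunctional regulators apart, held 17 tested genes with all 17 means higher in cKO, though 10 of these were higher by less than 0.1 on the log2 scale and Hk2 and Tpi1 turned lower with quantile normalization. Leaving out 1 library in turn left 13 to 16 of the 17 higher. This grouping of roles was not among the planned results. Of the 3 bifunctional regulators, 1 mean was higher and 2 were lower in cKO. The 17 genes hold Gapdh, Pgk1 and Pgam1, whose levels are uncertain, as given below. In the pyruvate dehydrogenase complex and its phosphatase, 4 of 5 means were lower, and 3 to 5 were when 1 library was left out.

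**Figure D1:**
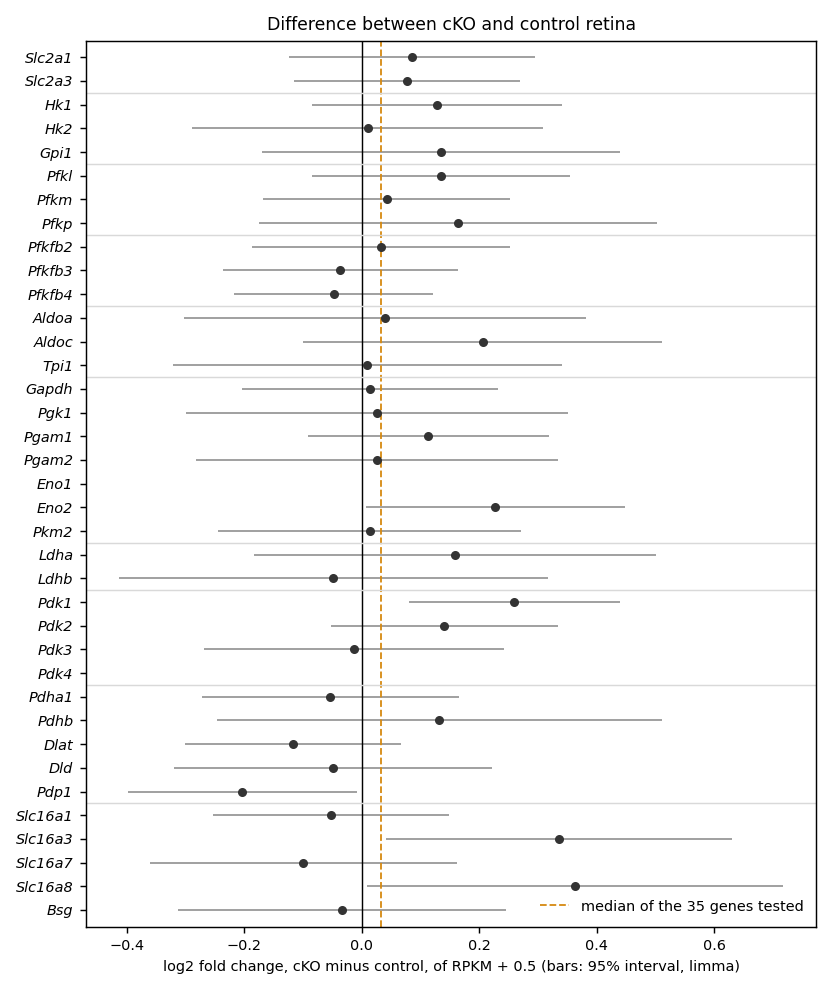
Log2 fold change of RPKM + 0.5, cKO minus control, for each gene (points) with its 95% interval from limma (bars); genes are in order of their role, grey lines part the roles, and Eno1 and Pdk4 have no point because they were not tested. The dashed line marks the members' median of 0.033, and the intervals of Pdk1, Slc16a3, Eno2, Slc16a8 and Pdp1 leave out 0 before any adjustment.

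The size of the lean varied with single libraries. The median log2 fold change of the members was 0.064, 0.059 and 0.023 without cKO replicates 2, 3 and 4. It was 0.034, 0.049 and 0.095 without control replicates 1, 2 and 3. The median of all genes tested was 0.023, -0.0026 and -0.032 without cKO replicates 2, 3 and 4. Without control replicates 1, 2 and 3 it was -0.0033, -0.029 and 0.020. Higher means among the members numbered 19 when cKO replicate 4 was left out and 20 when control replicate 2 was. The members' median deviation from their own mean over the 6 libraries was -0.035, 0.023 and 0.076 in cKO replicates 2, 3 and 4 and -0.029, -0.094 and 0.066 in control replicates 1, 2 and 3, on the log2 scale. Of the 6 libraries, cKO replicates 2, 3 and 4 were the highest for 6, 9 and 10 of the 35 members and control replicates 1, 2 and 3 for 1, 1 and 8. The lowest value fell in cKO replicates 2, 3 and 4 for 6, 6 and 2 members and in control replicates 1, 2 and 3 for 4, 12 and 5. Summed over the 37 members, the level was 5547, 6169 and 6437 RPKM in the cKO libraries and 5702, 5236 and 6400 RPKM in the controls, and the groups overlapped. The median deviation of all genes tested was also lowest in cKO replicate 2 (-0.045) and control replicate 2 (-0.040) and highest in cKO replicate 4 (0.047) and control replicate 3 (0.041). Its part in the members' lean was not tested.

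Glucose enters retinal cells through facilitative transporters. Slc2a1, which encodes GLUT1 (chromosome 4, 119108711 to 119137983 in GRCm38), was at 133, 117 and 126 RPKM in cKO replicates 2, 3 and 4 and at 122, 117 and 115 RPKM in control replicates 1, 2 and 3. The ranges overlapped, and the log2 fold change was 0.09 with a 95% interval from -0.12 to 0.30. Slc2a3, which encodes the neuronal transporter GLUT3, was at 21.1, 19.1 and 21.04 RPKM in cKO and 19.0, 18.5 and 20.4 RPKM in controls. GLUT1 made up between 84.9% and 86.5% of the RPKM of this pair in every library.

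Hexokinase traps glucose as its phosphate. Hk1, the general brain form, was the more abundant, at 227, 232 and 206 RPKM in cKO and 205, 207 and 197 RPKM in controls, and cKO replicate 4 lay within the control range. Hk2, the inducible form that photoreceptors also use, was at 70.8, 53.7 and 63.0 RPKM in cKO and 62.8, 68.2 and 54.8 RPKM in controls. For Hk2 the cKO libraries held both the highest and the lowest value, and the log2 fold change was 0.01. Gpi1, the isomerase of the next step, was at 196, 253 and 250.01 RPKM in cKO and 207, 193 and 234 RPKM in controls.

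Phosphofructokinase is a tetramer of liver, muscle and platelet subunits. Pfkl, the liver form and the most abundant, was at 172, 193 and 184 RPKM in cKO and 158, 165 and 177 RPKM in controls, a log2 fold change of 0.13 (95% interval -0.09 to 0.35). It contributed between 49.7% and 53.8% of the RPKM of the 3 subunits over the 6 libraries. Pfkm held 16.2% to 18.7%, and Pfkp held 27.5% to 34.1% with its highest share in cKO replicate 4. The bifunctional enzymes, which set the level of the allosteric activator fructose 2,6-bisphosphate, had overlapping groups too. Pfkfb2 was at 30.3, 29.5 and 35.4 RPKM in cKO and 30.5, 32.04 and 30.1 RPKM in controls, Pfkfb3 lay between 5.71 and 6.87 RPKM, and Pfkfb4 between 4.53 and 4.90 RPKM.

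Aldolase splits the hexose, and its brain form, Aldoc, was less abundant than its muscle form, Aldoa, in each library. Aldoa, the most abundant of all 37 genes, was at 1181, 1378 and 1463 RPKM in cKO and 1289, 1118 and 1522 RPKM in controls, with no separation of the groups. Aldoc was at 313, 357 and 368 RPKM in cKO and 320, 253 and 330 RPKM in controls, a log2 fold change of 0.21 (95% interval -0.10 to 0.51) that was 0.085 without control replicate 2 and 0.097 with quantile normalization. As a share of both, Aldoc was 20.9%, 20.6% and 20.1% in cKO and 19.9%, 18.5% and 17.8% in controls, so the 3 cKO libraries lay above the 3 controls. The log2 ratio of Aldoc to Aldoa differed by 0.17 (exact two-sided permutation p = 0.1, the smallest that 3 against 3 libraries allow, 0.35 after adjustment over 7 paralog pairs). Tpi1, triose phosphate isomerase, lay between 349 and 476 RPKM, with control replicates at both ends.

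The payoff steps lead from glyceraldehyde phosphate to pyruvate. Pkm2, the older symbol of the pyruvate kinase gene Pkm, was at 830.5, 963 and 877 RPKM in cKO and 863, 829 and 955 RPKM in controls, and Eno2, neuronal enolase, lay between 194 and 253 RPKM. Gapdh was listed between 8.09 and 9.63 RPKM, Pgk1 between 12.8 and 18.3 RPKM and Pgam1 at 10.4, 10.0 and 11.3 RPKM in cKO and 9.45, 9.16 and 10.6 RPKM in controls. Eno1 was listed at 0.505, 0.314 and 0.409 RPKM in cKO and 0.327, 0.318 and 0.445 RPKM in controls, on 11 to 32 reads per library. The sequence of each transcript was therefore compared with those of other genes.

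These 4 genes also had the most sequence in common with other annotated genes. Of the 50-base words in the longest protein-coding transcript in GENCODE M21, 82.5% for Gapdh, 72.2% for Eno1, 68.0% for Pgk1 and 41.5% for Pgam1 also occurred in annotated transcripts of other genes, the 4 highest shares of the 37. Gapdh shared words with 215 annotated pseudogenes and Eno1 with 8. The next share was that of Pkm2 at 34.4%, and Aldoa and Ldha, at 13.5% and 16.6%, were among the highest in level. How the authors treated reads with several matches is not given in the sources used here, and the part of shared sequence in these low values was not tested. Levels of Gapdh, Eno1, Pgk1 and Pgam1, and how they compare with those of other steps, are therefore uncertain.

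**Figure D2:**
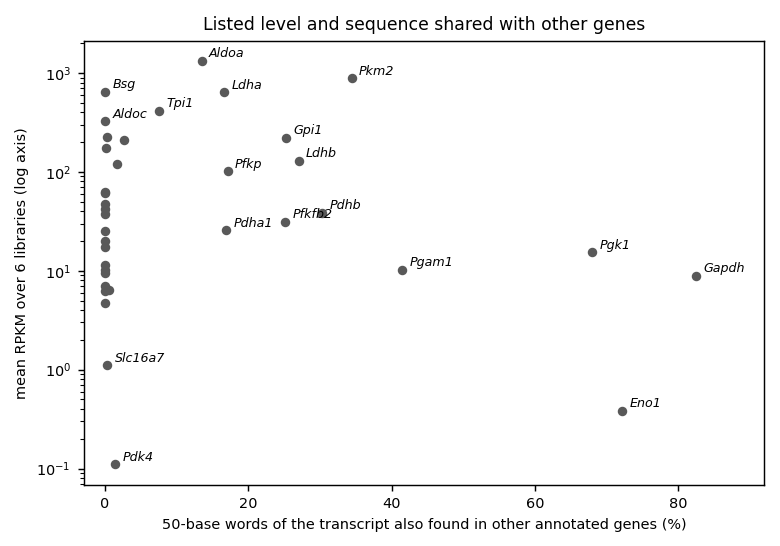
Percentage of each gene's 50-base words that also lie in annotated transcripts of other genes (x axis) against its mean RPKM over the 6 libraries (y axis, log scale), 1 point a gene. Gapdh, Eno1, Pgk1 and Pgam1 have the 4 highest shares, from 41.5% to 82.5%, and mean levels between 0.386 and 15.4 RPKM.

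Eno2 was the member of this stretch with the clearest difference. The gene (chromosome 6, 124760053 to 124769673 in GRCm38), of whose words 0.3% are shared, was at 238, 253 and 236 RPKM in cKO replicates 2, 3 and 4 and at 194, 206 and 222 RPKM in control replicates 1, 2 and 3. All cKO values lay above all control values, by 14.3 RPKM at the narrowest point. The mean was 117% of control, the log2 fold change 0.23 ± 0.10 (SE), and the adjusted p 0.871 by limma. Pgam2, the muscle form of phosphoglycerate mutase, was at 7.88, 7.94 and 5.54 RPKM in cKO and 7.18, 6.82 and 6.70 RPKM in controls, with cKO replicate 4 the lowest on 76 reads. Skeletal muscle markers were low, with 10 of 14 under 1 RPKM on average, and their summed level was 25.2 to 32.8 RPKM in cKO and 26.5 to 34.5 RPKM in controls, so it overlapped as well. Their part in the Pgam2 values was not tested.

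**Figure D3:**
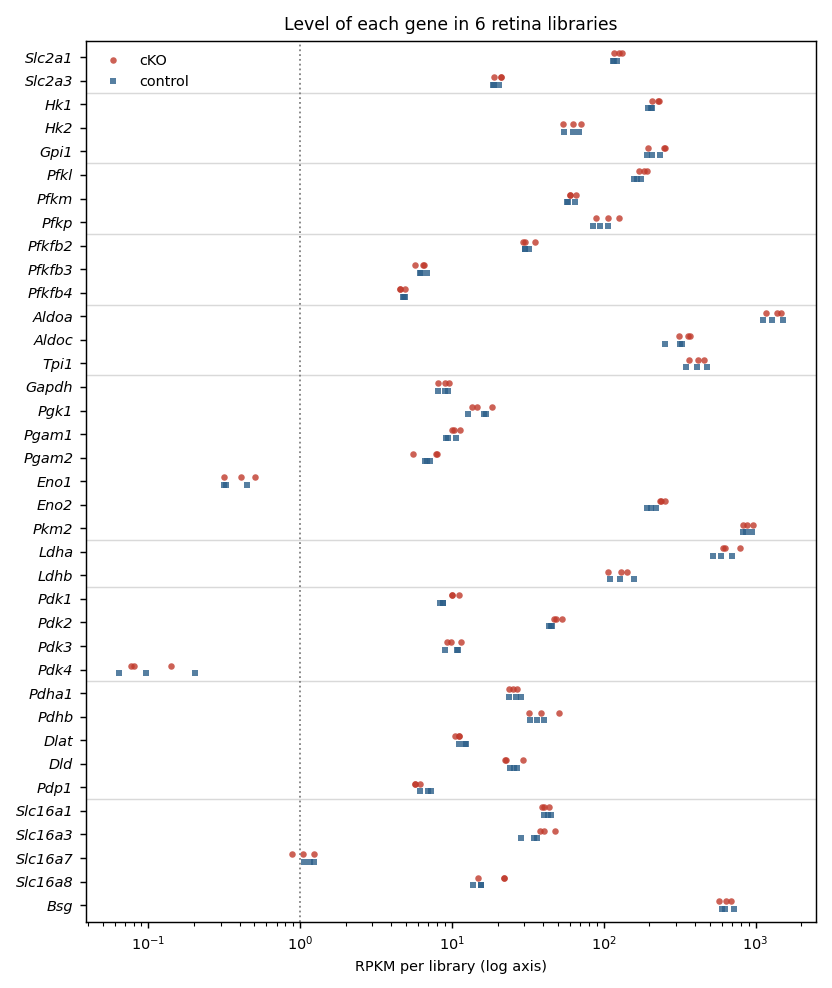
RPKM of each gene in the 3 cKO libraries (red circles) and the 3 control libraries (blue squares) on a log axis, in order of role; the dotted line marks 1 RPKM, the mean level a gene needed to be tested. Aldoa is highest, between 1118 and 1522 RPKM, and Eno1 and Pdk4 lie below the line in every library.

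Lactate dehydrogenase joins an LDHA subunit that favours lactate formation with an LDHB subunit that favours lactate use. Ldha was at 611, 627 and 784 RPKM in cKO and 591, 525 and 697 RPKM in controls. Ldhb was at 107, 131 and 143 RPKM in cKO and 127, 111 and 157 RPKM in controls. Neither gene separated the groups alone, with log2 fold changes of 0.16 (95% interval -0.18 to 0.50) for Ldha and -0.05 (-0.41 to 0.32) for Ldhb. The Ldha value was 0.045 without cKO replicate 4, 0.062 without control replicate 2, 0.27 without control replicate 3 and 0.035 with quantile normalization. Within each library, however, the Ldhb share of both was lower in every cKO library, at 14.9%, 17.3% and 15.4%, than in every control, at 17.7%, 17.4% and 18.4%. The log2 ratio of Ldhb to Ldha differed by -0.21 between the groups (exact two-sided permutation p = 0.1, adjusted 0.35 over 7 pairs), and cKO replicate 3 lay next to control replicate 2.

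The other 5 paralog pairs overlapped between the groups. Their differences in log2 ratio were 0.01 for Slc2a1 to Slc2a3, -0.12 for Hk2 to Hk1, -0.09 for Pgam2 to Pgam1, 0.15 for Eno2 to Eno1 and -0.05 for Slc16a7 to Slc16a1. A ratio within a library is free of any single scaling factor of that library apart from the added 0.5, and the level of a single gene is not. Quantile normalization is not a single factor. With it the log2 fold changes were 0.097 for Aldoc and 0.073 for Aldoa, and -0.083 for Ldhb and 0.035 for Ldha. The ratios themselves were recomputed only with other pseudocounts or with a library left out. The Eno2 to Eno1 and Pgam2 to Pgam1 ratios carry the uncertainty of Eno1 and Pgam1 given above.

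**Figure D4:**
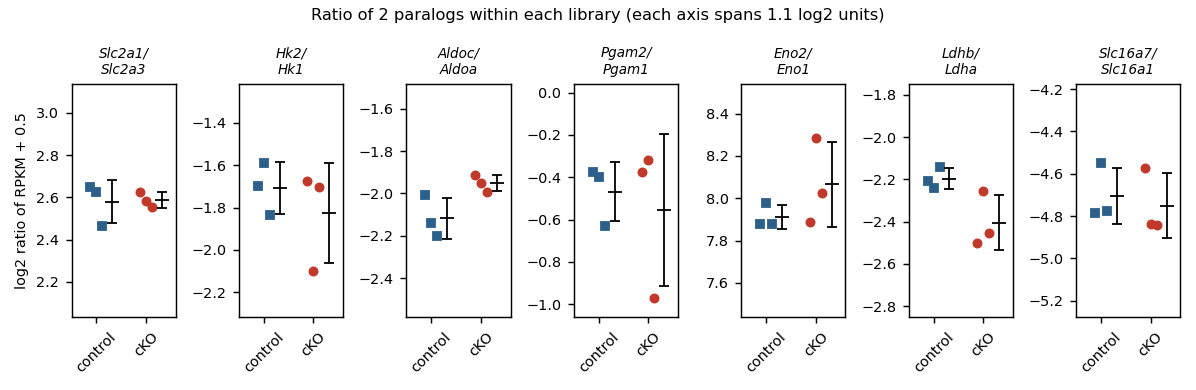
Log2 ratio of RPKM + 0.5 of 2 paralogs in each control (blue squares) and cKO (red circles) library, with the mean and SD of each group in black; every panel spans the same 1.1 log2 units. The groups do not overlap for Aldoc/Aldoa and for Ldhb/Ldha and overlap in the other 5 panels.

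The kinases that switch off pyruvate dehydrogenase held the smallest p of the whole set. Pdk1 (chromosome 2, 71873224 to 71903858 in GRCm38), a kinase that restrains entry of pyruvate into the mitochondrion and a textbook target of the hypoxia-inducible factor HIF1, was at 10.0, 10.1 and 11.2 RPKM in cKO and at 8.75, 8.77 and 8.34 RPKM in controls. Every cKO value was above every control value, on 868 to 1857 reads per library. The log2 fold change was 0.26 ± 0.08 (SE) with a 95% interval from 0.08 to 0.44, an unadjusted limma p of 0.0103 and an adjusted p of 0.848. Pdk2, the most abundant kinase, was at 48.4, 52.8 and 47.4 RPKM in cKO and 43.6, 45.6 and 45.3 RPKM in controls, again with no overlap, and a log2 fold change of 0.14. The adjusted p of Pdk2 was 0.943 by limma. It held between 67.6% and 72.4% of the RPKM of the 4 kinases. Pdk3 lay between 9.04 and 11.4 RPKM with no separation, and Pdk4, the kinase induced by fasting, was at 0.142, 0.0808 and 0.0766 RPKM in cKO and 0.202, 0.0966 and 0.0643 RPKM in controls, on 4 to 24 reads.

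The opposing phosphatase subunit gene lay on the other side. Pdp1 (chromosome 4, 11958184 to 11966452 in GRCm38), the catalytic subunit that turns the complex back on, was at 5.67, 5.69 and 6.12 RPKM in cKO and 6.93, 6.20 and 7.26 RPKM in controls. All cKO values were below all control values, though cKO replicate 4 and control replicate 2 differed by 0.0743 RPKM. The log2 fold change was -0.20 ± 0.08 (SE), the unadjusted limma p 0.0437 and the adjusted p 0.871. Of the complex itself, Dlat, the acetyltransferase core, was at 11.1, 11.2 and 10.6 RPKM in cKO and 12.3, 11.1 and 12.4 RPKM in controls (log2 fold change -0.12). Pdhb, a subunit of the first enzyme, was at 32.4, 38.7 and 50.7 RPKM in cKO and 36.3, 32.8 and 40.5 RPKM in controls, the cKO mean resting on replicate 4. Pdha1, its partner subunit, lay between 23.8 and 28.5 RPKM and Dld, the shared dehydrogenase, between 22.5 and 29.3 RPKM, both with overlap.

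**Figure D5:**
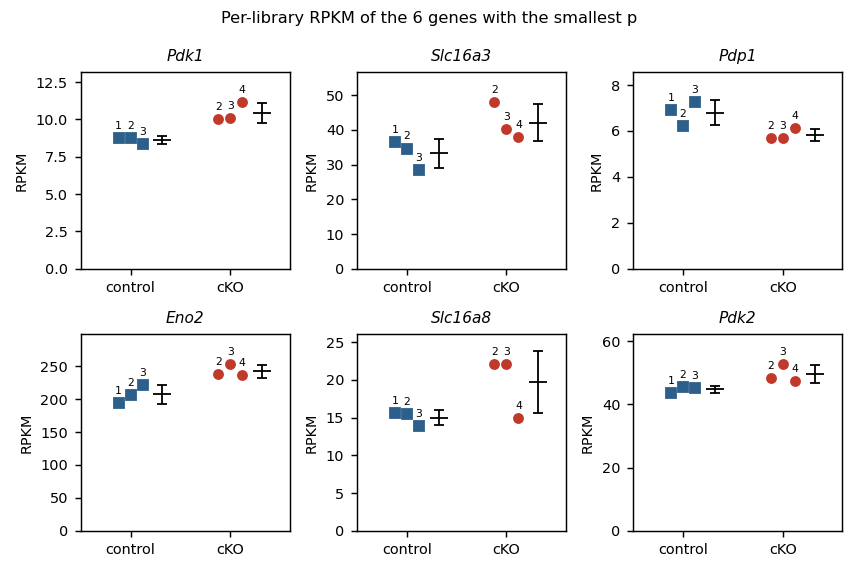
RPKM per library for the 6 members with the smallest limma p; numbers beside the points are replicate numbers, and the black bar and whiskers give mean and SD of each group (3 libraries each), with every axis starting at 0. Pdk1, Slc16a3, Eno2 and Pdk2 are higher and Pdp1 is lower in each cKO library than in each control, and for Slc16a8 cKO replicate 4, at 14.9 RPKM, lies among the controls.

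Lactate leaves and enters cells with a proton through monocarboxylate transporters, some of which need basigin to reach the membrane. Slc16a3, which encodes the low-affinity exporter MCT4 (chromosome 11, 120948480 to 120960868 in GRCm38), was at 48.0, 40.2 and 38.1 RPKM in cKO and 36.6, 34.6 and 28.6 RPKM in controls. The cKO values lay above the controls, with 1.53 RPKM between cKO replicate 4 and control replicate 1. The log2 fold change was 0.34 ± 0.13 (SE), the unadjusted limma p 0.0300 and the adjusted p 0.848. Slc16a1, which encodes the widespread transporter MCT1, was at 40.7, 39.2 and 43.6 RPKM in cKO and 42.8, 40.3 and 45.01 RPKM in controls, so that of these 2 abundant transporters only MCT4 had cKO values apart from the controls. As a share of the RPKM of the 4 transporters, Slc16a3 was 39.0% to 42.9% in cKO and 32.3% to 38.0% in controls. Slc16a7, the high-affinity MCT2 of neurons, was at 1.23, 0.888 and 1.04 RPKM in cKO and 1.07, 1.24 and 1.16 RPKM in controls, on 38 to 117 reads. Bsg, basigin itself, was at 572, 644 and 692 RPKM in cKO and 632, 600.1 and 720.0 RPKM in controls.

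Slc16a8 had the largest fold change of the members tested, and its cKO replicates were uneven. It encodes MCT3 (chromosome 15, 79251014 to 79254761 in GRCm38), the lactate transporter known from the basolateral side of the pigment epithelium. Its values were 22.1, 22.1 and 14.9 RPKM in cKO replicates 2, 3 and 4 and 15.7, 15.5 and 13.8 RPKM in controls, so cKO replicates 2 and 3 stood high and replicate 4 lay among the controls. The log2 fold change was 0.36 ± 0.15 (SE) with an adjusted limma p of 0.871, and it was 0.55 without cKO replicate 4 and 0.27 without cKO replicate 2 or 3. Pigment epithelium markers were present in every library, none of the 16 being at 0. Their summed level was 517, 457 and 419 RPKM in cKO and 452, 461 and 405 RPKM in controls. Rpe65, the defining isomerase of that epithelium, was at 11.7, 12.5 and 10.6 RPKM in cKO and 10.6, 8.05 and 10.6 RPKM in controls, and the pigment gene Dct at 117, 79.4 and 66.2 RPKM against 79.8, 124 and 62.0 RPKM. Of the 14 markers tested, 9 had a higher and 5 a lower mean in cKO, and the groups overlapped for all 14. The log2 fold changes of these markers ran from -0.39 to 0.25. At an unadjusted limma p under 0.05, 1 marker was lower in cKO, or 7.14% against 3.06% of all genes tested, and 0 were higher. Their part in the Slc16a8 values was not tested.

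Start-site sequence was examined because many glycolytic genes are textbook targets of HIF1 and MYC-family factors. The sites of these factors include those with the core ACGTG or the palindrome CACGTG, and other forms were not searched for. The 250 bases before each RefSeq start (GRCm38.p6) were searched for ACGTG on both strands, where CACGTG is 1 overlapping match on each strand and counts as 2. Of the 33 members matched to a promoter, 15 held at least 1 match in at least 1 of their starts, or 45.5%, against 25.3% of the 9917 genes tested that could be matched (78.9% of tested genes). By window, 19 of 49 member windows held it, or 38.8%, against 21.4% of windows of genes tested, at a median GC content of 60.4% in both. A match describes letters only. The 3 promoters below are shown because Ldha held the most matches of the members (5), and Pdk1 and Slc16a3 had the 2 smallest p of the set. Each is given 5′ to 3′ on the plus strand, from 1 of the gene's RefSeq starts, stopping before any annotated exon, with ACGTG and its reverse complement in capitals.
Ldha, chr7:46845554-46845803: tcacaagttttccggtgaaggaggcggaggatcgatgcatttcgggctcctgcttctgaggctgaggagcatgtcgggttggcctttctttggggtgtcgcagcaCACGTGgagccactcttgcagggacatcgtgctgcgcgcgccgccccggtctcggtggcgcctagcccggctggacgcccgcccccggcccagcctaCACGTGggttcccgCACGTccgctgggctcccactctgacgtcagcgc
Slc16a3, chr11:120948817-120949052: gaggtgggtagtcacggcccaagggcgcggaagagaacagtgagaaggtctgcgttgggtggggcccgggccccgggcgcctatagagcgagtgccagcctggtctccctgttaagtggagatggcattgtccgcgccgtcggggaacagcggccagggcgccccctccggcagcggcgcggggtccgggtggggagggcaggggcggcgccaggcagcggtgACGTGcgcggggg
Pdk1, chr2:71872974-71873214: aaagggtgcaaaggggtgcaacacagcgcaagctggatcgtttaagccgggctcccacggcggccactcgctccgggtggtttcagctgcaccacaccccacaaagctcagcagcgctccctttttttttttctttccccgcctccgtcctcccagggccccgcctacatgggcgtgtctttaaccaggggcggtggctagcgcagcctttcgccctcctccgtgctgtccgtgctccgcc
The Ldha window held CACGTG 2 times and a further single match near the start. Slc16a3 held 1 match in the 236 bases shown and a second beyond them in the full 250. The Pdk1 stretch held no ACGTG on either strand, which leaves other forms of the sites uncounted. Regulation of these genes by HIF1 or MYC-family factors was not tested.

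Related pathways were read from lists of genes outside the set, and no gene of them passed an adjusted p of 0.05. Of 24 other genes of glycolysis and gluconeogenesis tested, 13 had a higher and 11 a lower mean in cKO (median log2 fold change 0.022). Ldhd, a mitochondrial D-lactate dehydrogenase, was at 2.04, 2.27 and 2.23 RPKM in cKO and 1.80, 1.71 and 1.73 RPKM in controls, and Slc2a8, an intracellular glucose transporter, at 18.3, 19.9 and 17.8 RPKM against 15.0, 16.8 and 15.5 RPKM. Both lay above the controls in each cKO library, and Adpgk, a glucose-phosphorylating kinase named after its values were seen, lay below them, at 6.90, 6.83 and 8.03 RPKM in cKO and 8.53, 8.14 and 9.59 RPKM in controls. The pentose phosphate pathway, a side branch that makes NADPH, had 4 of 10 higher (median -0.0026), with Rpe, its epimerase, at 4.48, 4.43 and 5.13 RPKM in cKO and 5.83, 4.98 and 5.92 RPKM in controls and Prps2 with a log2 fold change of -0.047. Glycogen genes had 10 of 21 higher (median -0.0043), among them glycogen synthase Gys1 at 6.17, 6.05 and 5.76 RPKM against 5.34, 5.42 and 4.90 RPKM and the phosphoglucomutase gene Pgm2 at 43.7, 46.5 and 50.6 RPKM against 38.0, 38.3 and 43.3 RPKM.

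Downstream of pyruvate, the citric acid cycle list had 7 of 20 means higher (median -0.0095), with the cytosolic isocitrate dehydrogenase gene Idh1 at a log2 fold change of -0.16 and overlapping groups. Carriers and enzymes that move reducing equivalents or their partners across the mitochondrial membrane had 5 of 10 higher (median -0.0025). Slc25a10, the dicarboxylate carrier, was at 12.4, 11.9 and 11.7 RPKM in cKO and 10.0, 10.5 and 8.45 RPKM in controls, and Slc25a22, a glutamate carrier, at 104, 115 and 125 RPKM against 99.2, 94.6 and 97.6 RPKM. Both had no overlap and adjusted limma p of 0.848 and 0.871.

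Regulators of glycolytic genes split 13 higher and 10 lower (median 0.011). Egln1, the oxygen-sensing hydroxylase that marks HIF1 for destruction, was at 46.5, 41.9 and 45.5 RPKM in cKO and 37.9, 38.4 and 36.8 RPKM in controls, and Prkaa1, a catalytic subunit of the energy sensor AMPK, at 3.22, 3.48 and 3.52 RPKM against 4.15, 3.94 and 3.68 RPKM. The groups did not overlap for either gene, and the adjusted limma p were 0.848 and 0.883. Other hypoxia response genes had 11 of 18 higher (median 0.037), with Vegfa at a log2 fold change of 0.14 and P4ha2 at 0.21 and overlapping groups for both. Each cKO library was higher than each control for 2 of the 24 other glycolysis genes, 2 of 21 glycogen genes, 2 of 10 shuttle genes and 3 of 23 regulators, and for 0 genes of the other 3 lists, against 5.91% of all genes tested. Each was lower for 2 other glycolysis genes, 1 shuttle gene and 2 regulators, and for 0 genes of the other 4 lists, against 5.78%. The median of the set itself, 0.033, lay between those of the last 2 lists and inside the range of all 7.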

How the data were processed

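Poly(A) RNA of 6 retina libraries was sequenced. The authors deposited 1 table of RPKM values per gene and library, printed to 5 decimals, and the submitters' processing notes name GSNAP, HTSeq and build mm9. The sources used here do not give the annotation, the length model or the handling of multiply matching reads. Groups and replicate numbers came from the sample titles. Whole reads were worked back from the RPKM steps for 19138 of 19140 genes above 0, with the scale set by 359 genes of a single GENCODE M21 length. Limma 3.58.1 (R 4.3.3) with a variance trend was run on log2(RPKM + 0.5) for genes whose mean reached 1 RPKM, two-sided and adjusted by Benjamini-Hochberg over all 12599. The test was checked on simulated reads. Single values and paralog ratios were compared by exact permutation over libraries. P-values measure the spread between pools of 4 mice. The members and lists were chosen with earlier results of these data known. Values per library are given for the most abundant member of each role, the 10 with the smallest limma p, paralog pairs and members under 1 RPKM, and for related lists the 2 genes with the smallest p, of which 1 is not reported here. Alternatives changed the pseudocount, filter, scaling, test and libraries. Coordinates (GRCm38) only place genes. Reads carry no strand.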

Additional observations from a re-analysis of the deposited data

How the results depend on the processing

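Over 16 alternatives, no member passed the adjusted threshold except under the replicate block. No labels say that replicates 2 and 3 of both groups were paired (same-number deviations correlated at r = 0.47 and -0.052), and the replicate block on these 4 libraries leaves 1 residual degree of freedom. It called 93 genes higher and 116 lower and 2 members, where the same 4 libraries without it called 0 members. These were Slc16a3 (log2 fold change 0.48, adjusted p of 0.0178 by limma) and Slc16a8 (log2 fold change 0.58, adjusted p of 0.00526 by limma). Over all genes tested, 2 passed as higher with the filter at 5 RPKM, 3 with median-of-ratios scaling, 2 with voom on recovered reads and 3 with each library's gene length trend removed, an alternative chosen after seeing the data. With no filter, 2 passed as lower. Leaving out each library gave 19 to 27 members higher and a median of 0.023 to 0.095, with 1 gene higher, 0 lower and 0 members past the threshold. Of 25 named members tested, 17 kept their sign in all alternatives. Hk2 was at -0.021 with quantile normalization, and the 4 libraries sharing numbers, with or without the block, gave -0.055 for Pfkfb2, -0.032 for Aldoa and -0.040 for Pdhb. Leaving out each library gave ranges of -0.083 to 0.11 for Hk2, -0.047 to 0.083 for Pfkfb2, -0.069 to 0.15 for Aldoa, -0.056 to 0.18 for Pgam2, -0.045 to 0.072 for Pkm2, -0.17 to 0.087 for Ldhb, -0.039 to 0.28 for Pdhb and -0.096 to 0.042 for Bsg. Without a change of sign, the value moved by over 1.5 times for Slc2a1 (0.043 to 0.14), Slc2a3 (0.049 to 0.12), Gpi1 (0.072 to 0.25), Aldoc (0.085 to 0.28), Pgam1 (0.065 to 0.18), Ldha (0.045 to 0.27), Slc16a1 (-0.094 to -0.014), Slc16a7 (-0.18 to -0.021) and Slc16a8 (0.27 to 0.55). The same ranges of the log2 ratio were -0.049 to 0.044 for Slc2a1/Slc2a3, -0.19 to 0.018 for Hk2/Hk1, -0.21 to 0.12 for Pgam2/Pgam1 and -0.13 to 0.030 for Slc16a7/Slc16a1, against 0.044 to 0.24 for Eno2/Eno1, 0.12 to 0.22 for Aldoc/Aldoa and -0.28 to -0.16 for Ldhb/Ldha. The cause was not tested. With 3 libraries a group, exact permutation p cannot go below 0.1, and Eno1 and Pdk4, at 4 to 32 reads, were too shallow to compare.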
